A study of Arabidopsis thaliana with 4 samples.

Results

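The genes described here shape the leaf hair, or trichome, of Arabidopsis thaliana, or build the actin and tubulin cytoskeleton. They are 20 loci of trichome branching and shape, together with every numbered gene of the actin (ACT), actin depolymerizing factor (ADF), profilin (PRF), alpha tubulin (TUA) and beta tubulin (TUB) families that the array annotation pairs with a probe set of its own. In all, 29 of 13338 genes with a named probe set were members. All 20 shape loci were measured, of which the platform annotation named 7 and the study's list of trichome genes 13. Of 39 numbered family genes in RefSeq, 9 were measured, namely 2 of 9 ACT, 2 of 6 TUA and 5 of 9 TUB genes. None of the 11 ADF and 4 PRF genes had a probe set of its own name, and they were not analysed here. Each member was read by 1 named probe set.

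RNA came from green tissue of plants at an age of 20 days by the labels. The 4 samples fall into 2 groups of 2. Wild type plants were of the Landsberg erecta accession, and gl3 egl3 plants carried mutations in both GL3 and EGL3, related bHLH genes whose joint loss leaves leaves without trichomes. The labels name neither the alleles nor the accession of the mutant, and they give no batch. One ATH1 array (Affymetrix) was read per sample. Photosynthesis genes marked the material as green tissue, with RCA between 12.48 and 12.61 and LHCB4.1 between 13.24 and 13.39 on the 4 arrays, while the root hair genes EXPA7 and EXPA18 stayed between 2.15 and 2.16. PYK10, the third root marker measured, was abundant at 10.04 and 11.04 in gl3 egl3 and at 10.75 and 10.64 in wild type, with overlapping groups. All values are log2 expression values of GCRMA, and those under 3 are called the low end of the scale, where this method draws dim probe sets together. Array medians ran from 4.92 to 4.99.

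A trichome is one enlarged epidermal cell, which first sends out branches and then expands. Microtubules are known for setting the number and place of the branches, and filamentous actin for the later expansion. The ARP2/3 complex starts new actin filaments, the SCAR complex activates it, and the signalling protein SPK1 acts above both through ROP GTPases. Mutants in these genes form distorted trichomes, whereas mutants in tubulin-folding cofactors, kinesins and branching genes form trichomes with too few, too many or swollen branches. Most of these proteins also serve other cells of the shoot.

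The question was whether transcripts of this machinery differed in green tissue that forms no leaf trichomes. The actin gene ACT11 and the branching gene AN were higher in gl3 egl3 than in wild type on both mutant arrays, and the branching gene BLT was lower on both. Most other members lay close together, and 20 of 29 differed by less than 0.25 on the log2 scale. Such closeness was common on the array, with 9741 of 13338 named genes under 0.25. With a mean of 3 or more, it held for 18 of 27 members and for 4397 of 7637 named genes. No member passed the limma threshold of an adjusted p under 0.05 over all 22746 probe sets, and neither did any other probe set, which is 0.0% of them. The smallest limma adjusted p among the members was 0.168, that of ACT11.

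At an unadjusted limma p under 0.05, 4 of 29 members (13.8%) differed, against 9.31% of all probe sets. ACT11, AN and GRL lay higher in gl3 egl3, as did 5.58% of all probe sets at this level, and BLT lay lower, as did 3.72%. At an unadjusted p under 0.01 there were 3 of 29 members, ACT11, BLT and GRL, against 3.25% of all probe sets. Among named genes with a mean of 3 or more, 4.74% met that level. The level of 0.05 was met by 8.27% of genes with a named probe set, and by 13.8% of those whose mean was at least 3, so the share of members was near the background of expressed genes. The groups did not overlap for 13 members (44.8%), 6 of them higher and 7 lower in the mutant. ACT12, at the low end, is counted among the 6. Over all probe sets the groups did not overlap for 50.8%, with 38.1% higher and 12.7% lower. With a mean of 3 or more, they did not overlap for 12 of 27 members (44.4%), against 46.2% of genes. The methods' t-test left 0 members and 0 of all probe sets past the adjusted threshold, and 3 members at an unadjusted p under 0.05. The share of all probe sets at that level in this test is not given here, and the limma shares do not stand in for it.

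**Figure D1:**
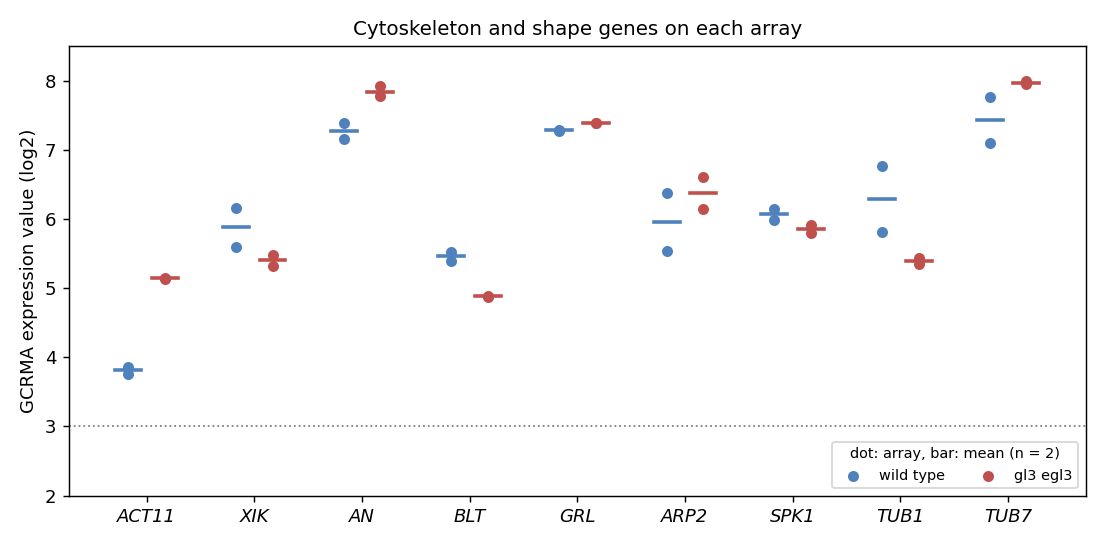
Log2 GCRMA expression values (vertical axis) of 9 genes on each of the 4 arrays, with wild type in blue and gl3 egl3 in red. Each dot is an array, each bar a mean of 2 arrays, and the dotted line marks the low end at 3. The groups lie apart for ACT11 (5.13 and 5.14 against 3.76 and 3.86), AN and BLT, while the wild type arrays of TUB1, TUB7 and ARP2 lie far from each other.

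Among the branching genes, AN and BLT differed in opposite directions and by the same size. AN encodes a protein related to the CtBP co-repressors of animals, and mutants that lack it form trichomes with fewer branches. It (AT1G01510) was at 7.92 and 7.77 in gl3 egl3 and at 7.38 and 7.16 in wild type. Both mutant arrays lay above both wild type arrays, with 0.39 between the nearest. This gave a log2 difference of 0.58 (SE 0.12, 95% interval 0.16 to 0.99), a 1.49-fold higher level, with a limma adjusted p of 0.416.

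BLT encodes a coiled-coil protein, and mutants that lack it form unbranched trichomes. It (AT1G64690) was at 4.89 and 4.87 in gl3 egl3 and at 5.52 and 5.39 in wild type. The mutant arrays lay together and below both wild type arrays, with 0.5 between the nearest. For BLT this is a log2 difference of -0.58 (SE 0.0611, 95% interval -0.79 to -0.37), a 1.49-fold lower level, with a limma adjusted p of 0.248. It was -0.40 once 16 units were added to each linear value before the logarithm, a stand-in for a different background correction. In tissue of many cell types, fewer cells that express a gene and less RNA per cell cannot be told apart.

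STI (AT2G02480), the third branching gene, sets the number of branches and resembles a subunit of bacterial DNA polymerase III. It lay at the low end on all arrays, at 2.34 on both mutant arrays and at 2.33 and 2.35 on the wild type arrays. A lower level in the mutant, or a small difference either way, could therefore not have been seen. The median difference of the 3 branching genes was 0.00, the value of STI, and describes neither AN nor BLT.

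Of the actin genes, ACT11 had the largest difference of all members. It (AT3G12110) is known as an actin of reproductive organs and growing tissue. On the mutant arrays it was at 5.13 and 5.14, and on the wild type arrays at 3.76 and 3.86. The arrays of each group lay within 0.09 of each other and the groups 1.27 apart. Means (± SD, n = 2) were 5.14 ± 0.00888 for the mutant against 3.81 ± 0.0662, and limma gave a log2 difference of 1.33 (SE 0.0435, 95% interval 1.17 to 1.48), or 2.51-fold. By its unadjusted limma p of 0.000203 it ranked 22 of 22746 probe sets. Since earlier results of these data had already singled out ACT11, this rank is a description. Wild type lay near the low end, and adding 16 linear units brought the difference to 0.77.

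ACT12 (AT3G46520), an actin known from pollen, was at the low end, between 2.14 and 2.15 on all arrays. ARP7 (AT3G60830), a nuclear actin-related protein, was at 7.18 and 7.45 against 7.27 and 7.39. The groups overlapped for ARP7. Of the 15 listed flower and pollen markers none had a named probe set, so the share of floral tissue in the samples, and its part in the value of ACT11, was not tested. The array annotation names ACT11 as the only gene of its probe set. Actin genes are alike in their coding sequence, and whether other actin transcripts bound its probes was not tested.

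XIK (AT5G20490) encodes a myosin that moves along actin filaments and is needed for normal trichomes. It was at 5.32 and 5.48 in gl3 egl3 and at 5.59 and 6.16 in wild type. The groups did not overlap, but the nearest arrays lay only 0.11 apart and the wild type arrays 0.57. With a log2 difference of -0.48 (SE 0.259, limma adjusted p = 0.789), XIK depended on single arrays. Leaving out wild type replicate 2 gave -0.19 and leaving out replicate 1 gave -0.76. The study's list gives this probe set to XIK, and its suffix marks a probe set that can bind several transcripts.

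The ARP2/3 and SCAR genes were close to each other in both groups, with a median difference of 0.02 over 8 members, against 0.01 over all genes with a named probe set. Of these 8, 4 were higher and 4 lower. A difference of less than 0.25 was found for 7 of them, against 4397 of 7637 named genes with a mean of 3 or more. GRL (AT2G35110), the NAP1 subunit of the SCAR complex, was at 7.39 and 7.38 in gl3 egl3 and at 7.28 and 7.27 in wild type. The groups did not overlap, and the arrays of each group agreed within 0.01. It differed by 0.11 on the log2 scale (SE 0.0148, 95% interval 0.06 to 0.16), a 1.08-fold higher level, with a limma adjusted p of 0.286. With each array centred on its median it was 0.08, and the unadjusted p was then no longer under 0.05.

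SPK1 (AT4G16340), which activates ROP GTPases, was at 5.91 and 5.80 in gl3 egl3 and at 6.15 and 5.98 in wild type. The groups did not overlap, with 0.07 between the nearest arrays. Its log2 difference was -0.21 (SE 0.0872, limma adjusted p = 0.678). ARP2 (AT3G27000), a core subunit of the ARP2/3 complex, was at 6.60 and 6.15 in gl3 egl3 and at 6.38 and 5.54 in wild type. The groups overlapped, and the difference of 0.42 (SE 0.417) rested on wild type replicate 2, without which it was -0.01. Leaving out replicate 1 instead gave 0.84.

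The groups overlapped for the other 5 genes of these complexes. DIS1 (AT1G13180), the ARP3 subunit that pairs with ARP2, had a log2 difference of 0.07 (95% interval -0.14 to 0.29), and DIS2 (AT1G30825), the ARPC2 subunit, one of -0.15 (-0.72 to 0.42). BRK1 (AT2G22640), the small subunit of the SCAR complex, differed by 0.17 (-0.26 to 0.59), PIR121 (AT5G18410), the partner of the NAP1 subunit, by -0.04 (-0.26 to 0.18) and SCAR2 (AT2G38440), which contacts the ARP2/3 complex, by -0.12 (-1.17 to 0.93). The interval of SCAR2 is wide because its wild type arrays, at 5.78 and 6.46, lay on either side of the mutant arrays at 6.06 and 5.94. The interval of PIR121, by contrast, leaves room for no more than a small difference in either direction.

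**Figure D2:**
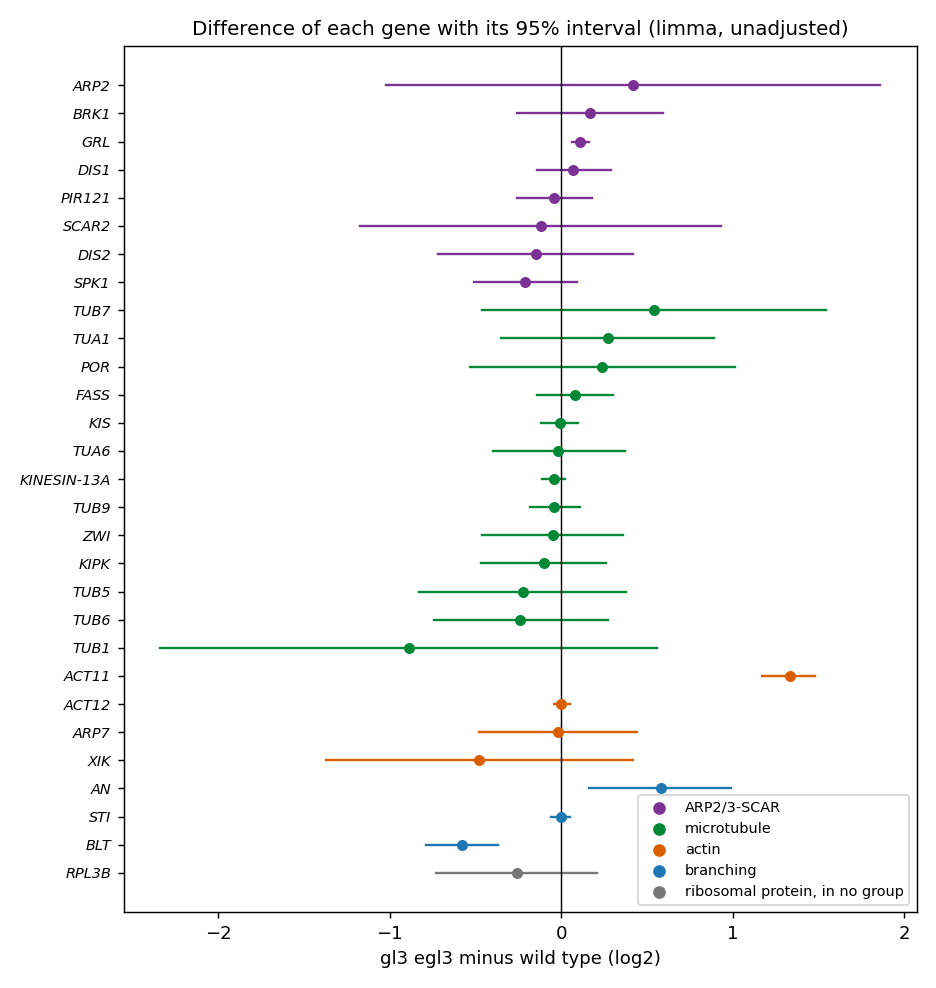
Log2 difference, gl3 egl3 minus wild type (horizontal axis), of the 29 genes with its 95% interval from limma, not adjusted for the number of genes, ordered within the colour-marked groups. The intervals of ACT11 (1.17 to 1.48), AN, GRL and BLT leave out 0, and those of TUB1 and ARP2 are the widest.

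The microtubule genes held wide differences that came with an equally wide spread of the arrays. Their median difference was -0.04 over 13 members. Of the 13, 10 differed by less than 0.25, against 4397 of 7637 named genes with a mean of 3 or more. None of the 13 reached an unadjusted limma p under 0.05 with all arrays. The groups did not overlap for 5 of them (38.5%), TUA1, TUB7, TUB1, TUB6 and KINESIN-13A. The share was 50.8% over all probe sets and 46.2% over genes with a mean of 3 or more, so for 13 genes it was near the background.

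TUB1 (AT1G75780), a beta tubulin gene, was at 5.44 and 5.35 in gl3 egl3 and at 6.76 and 5.81 in wild type. Both mutant arrays lay below both wild type arrays, which were themselves 0.96 apart. TUB1 thereby had a log2 difference of -0.89 (SE 0.42, 95% interval -2.34 to 0.56, limma adjusted p = 0.731). Leaving out wild type replicate 1 gave -0.41 and leaving out replicate 2 gave -1.37.

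TUB7 (AT2G29550), a further beta tubulin gene, lay the other way, at 8.0 and 7.95 in the mutant against 7.76 and 7.10 in wild type. The mutant arrays lay above both wild type arrays, which were 0.66 apart. TUB7 thereby had a log2 difference of 0.54 (SE 0.29, 95% interval -0.46 to 1.54, limma adjusted p = 0.784). Leaving out wild type replicate 2 gave 0.21 and leaving out replicate 1 gave 0.87. Both TUB1 and TUB7 were higher on wild type replicate 1 than on replicate 2.

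The other tubulin genes differed by less. TUA1 (AT1G64740) was at 7.43 and 7.34 against 6.92 and 7.32 in wild type, and its groups lay 0.03 apart. TUB6 (AT5G12250) was at 9.57 and 9.49 against 9.61 and 9.93, also 0.03 apart. The log2 differences of TUB5 (AT1G20010), TUB9 (AT4G20890) and TUA6 (AT4G14960) were -0.22, -0.04 and -0.02, with overlapping groups. Of the 7 tubulin genes, 2 were higher and 5 lower, with a median of -0.04. Tubulin genes of a family are similar in sequence, and binding of related transcripts to their probe sets was not tested.

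A probe set that the annotation gives to both TUA5 and TUA3, alpha tubulin genes, is outside the membership rule and is described after its value was seen. It was at 11.45 and 11.44 in gl3 egl3 and at 10.99 and 10.83 in wild type. The groups did not overlap and lay 0.45 apart. Its log2 difference was 0.53 (SE 0.0701, 95% interval 0.29 to 0.77), with an unadjusted limma p of 0.00746 and an adjusted p of 0.283. Which of the genes it reads cannot be told apart.

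**Figure D3:**
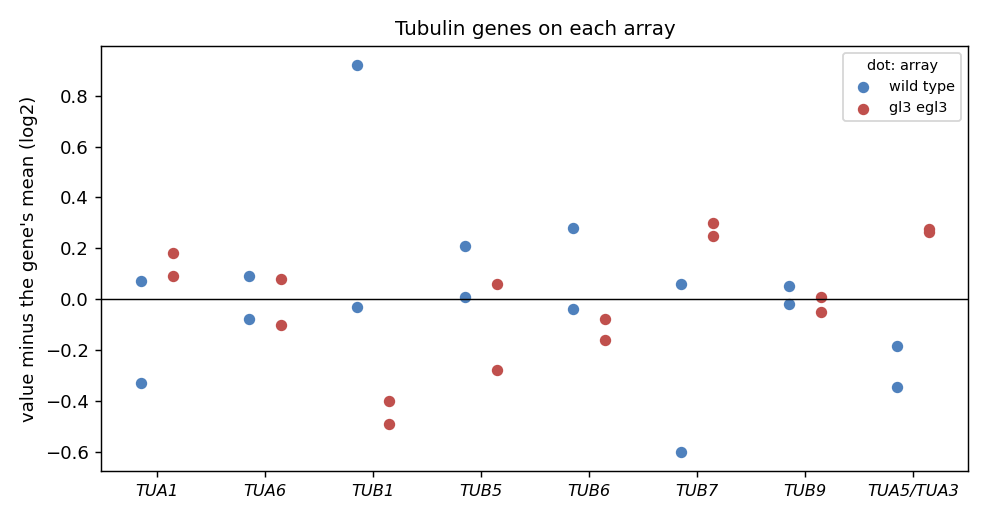
Log2 values of 7 tubulin genes, and of the probe set shared by TUA5 and TUA3, on each array, each minus the mean of that gene over the arrays (vertical axis), with wild type in blue and gl3 egl3 in red. For TUB1 the higher wild type array lies 0.96 above the other, while the arrays of each group lie together for TUA5 and TUA3.

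The genes that fold tubulin or act on microtubules had small differences. KIS (AT2G30410), the tubulin-folding cofactor A, was at 11.21 and 11.18 in gl3 egl3 and at 11.17 and 11.23 in wild type, with a 95% interval of the difference from -0.12 to 0.10. The groups overlapped and the interval leaves room only for a small difference. POR (AT4G39920), the tubulin-folding cofactor C, was at 4.36 and 4.86 against 4.39 and 4.36, and its difference of 0.24 was -0.01 without gl3 egl3 replicate 2.

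FASS (AT5G18580), a regulatory subunit of protein phosphatase 2A that orders cortical microtubules, was at 9.0 and 9.06 against 8.89 and 9.02. ZWI (AT5G65930), a kinesin bound by calmodulin and needed for trichome branching, was at 6.59 and 6.67 against 6.55 and 6.81, and its partner kinase KIPK (AT3G52890) at 5.60 and 5.38 against 5.54 and 5.64. The groups overlapped for FASS, ZWI and KIPK. KINESIN-13A (AT3G16630), whose loss gives trichomes with more branches, had log2 values of 7.59 and 7.61 against 7.65 and 7.63, a difference of -0.04 with a 95% interval from -0.11 to 0.02.

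One of the 20 shape loci is no cytoskeleton gene by its annotation. AT1G61580 stands in the study's list as ARP2 and is RPL3B in RefSeq, a ribosomal protein whose older name shares that abbreviation, while the actin-related ARP2 is AT3G27000. RPL3B was at 4.99 and 4.73 in gl3 egl3 and at 5.21 and 5.03 in wild type, a log2 difference of -0.26 (SE 0.136, limma adjusted p = 0.778). It was placed in none of the 4 groups.

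Between the arrays of a group, the median gap of the members was 0.10 in gl3 egl3 and 0.14 in wild type, against 0.20 and 0.22 over the 7637 named genes with a mean of 3 or more. The sets are not quite alike, since the 29 members include ACT12 and STI, at the low end, with gaps of at most 0.02. The gap was larger in wild type for 20 of 29 members and for 4035 of those 7637 genes. A gap over 0.5 was found for 1 member in gl3 egl3, POR, and for 5 in wild type, TUB1, ARP2, SCAR2, TUB7 and XIK. These are 3.45% and 17.2% of the members, against 15.9% and 17.5% of those genes, so that in wild type the share was near the background. The difference between the groups exceeded the gaps within both groups for 7 members, or 24.1%, against 29.8% of those named genes. They were ACT11, AN, BLT, GRL, SPK1, RPL3B and KINESIN-13A.

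**Figure D4:**
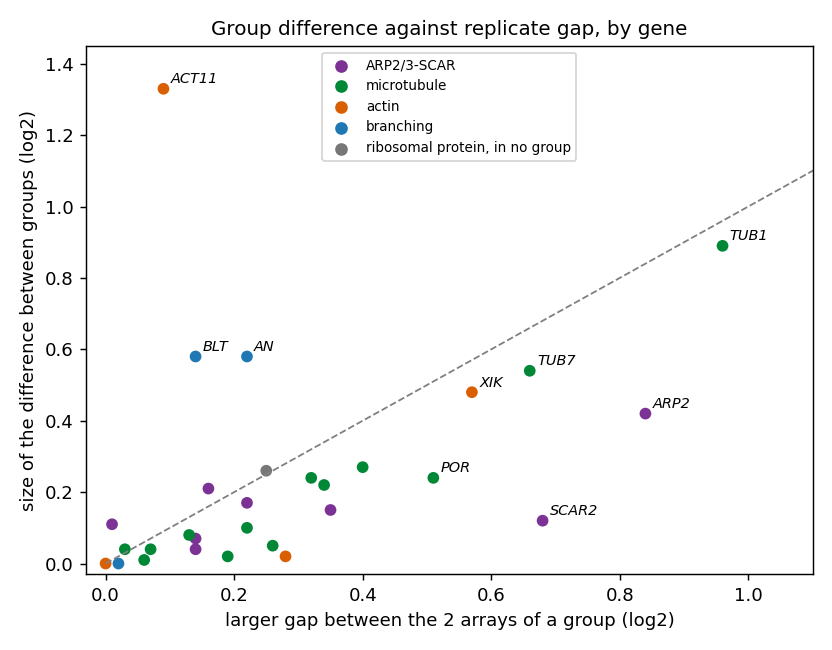
Size of the log2 difference between the groups (vertical axis) against the larger of the gaps between the arrays of a group (horizontal axis, log2) for the 29 genes, coloured by group, with a dashed line where both are equal. ACT11 lies far above the line at 1.33, BLT and AN lie above it at 0.58, and TUB1, TUB7, XIK and ARP2 lie below it.

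The share of named genes that were higher in gl3 egl3 depended on the scaling of the arrays, while that of the members changed little. Of 29 members, 11 were higher in gl3 egl3, or 37.9%, against 62.8% of all probe sets and 64.9% of all named genes. After median centring of the arrays, the share of members was 34.5% and that of named genes 35.1%. Among named genes with a mean of at least 3, the share higher was 58.0% as deposited and 51.7% after centring, above that of all 29 members in both. Of the 27 members with such a mean, 10 were higher as deposited. Among probe sets at an unadjusted p under 0.05, 60.0% were higher, and 51.5% with that centring. The directions of ACT11, AN, BLT and GRL held under each scaling tried.

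Further genes of the same machinery were few on the named part of the array. Of 26 other ARP2/3, SCAR and ROP genes listed, 1 was measured, the ARPC5A subunit gene CRK, at 6.33 and 6.51 in the mutant against 6.79 and 6.63 in wild type. Its groups did not overlap, and the log2 difference was -0.29 (SE 0.105, limma adjusted p = 0.623). Of 28 other actin-binding and myosin genes 4 were measured, of 34 other microtubule genes 4, and of 7 other trichome shape and wall genes 2. None reached an unadjusted limma p under 0.01, so the members with the largest differences of each list are named here.

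NET1A, an actin-binding gene, differed by -0.50, with 1 wild type array at 3.89 and the remaining arrays from 2.85 to 2.87, and AIP1-2, or AT3G18060, an actin-interacting gene, by -0.14. The cofactor E gene PFI differed by 0.19 and SPR1, a gene of directional cell expansion, by -0.15. SPI, a gene of trichome shape, had a difference of 0.02 and TBR, or AT5G06700, a gene of trichome wall cellulose, one of 0.00, both with overlapping groups. Only SPI and TBR of their list had a named probe set.

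Of 7 listed markers of trichome cells, GL2, TRY, MYB23, ETC1 and TTG2 lay at the low end on all arrays. The other markers were CPC, at 2.92 and 2.72 in gl3 egl3 against 3.92 and 5.23 in wild type, and SIM, at 6.37 and 6.63 against 6.35 and 6.35. CPC had a log2 difference of -1.76 (SE 0.581, limma adjusted p = 0.591). Its groups did not overlap, but its mutant arrays lay at the low end and its wild type arrays 1.31 apart. SIM differed by 0.15 (SE 0.119, limma adjusted p = 0.793), with groups only 0.01 apart. Of the mitotic markers, 2 of 7 were measured. AUR2 was at 3.92 on both mutant arrays and at 5.33 and 3.64 in wild type, and AUR1 at 3.14 and 3.54 against 3.79 and 2.59. Replicate 1 was the higher wild type array for AUR1 and AUR2, as it was for TUB1, TUB7 and ARP2, while replicate 2 was the higher for XIK, SCAR2 and TUA1. The part of dividing tissue in those values was not tested.

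The guard cell gene FMA was at 7.09 and 6.61 against 6.82 and 7.39, with overlapping groups. In guard cell lineage and root lists, 3 of 5 genes each were measured, and none of these 6 had groups that did not overlap.

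The nearest measured genes on the chromosome were looked at for the members that differed. Of the 6 nearest named genes of ACT11, 3 to each side, AT3G12040 differed by -1.01 and the others by -0.13 to 0.17. BLT lies 112 protein-coding genes from the mutated EGL3 and 4 from TUA1, and its 6 nearest named genes had unadjusted limma p-values from 0.272 to 0.688. Near AN, AT1G01540, 3 genes away, was at 10.23 and 10.31 in gl3 egl3 and at 9.69 and 9.74 in wild type. Its log2 difference of 0.55 was close to that of AN, at 0.58, with an unadjusted limma p of 0.00234, and the remaining 5 neighbours of AN differed by -0.07 to 0.05. Of these 5, PIPK11, AGL28 and AT1G01570 lay at the low end, which leaves AT1G01500 and AT1G01490 for comparison. Also at the low end were AT3G12170 near ACT11, AT1G64700 near BLT, and AT2G35080 and AT2G35075 near GRL. Around GRL, the groups lay at least 0.09 apart for AT2G35170, at 5.90 and 6.75 in gl3 egl3 against 5.74 and 5.78 (log2 difference 0.57), and for AT2G35155 (0.28), and the 6 neighbours had unadjusted limma p-values from 0.135 to 0.747. Whether the plants differed in sequence around these genes was not tested.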

How the data were processed

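The authors deposited log2 expression values per probe set, made with GCRMA through affylmGUI in R from ATH1 arrays of 4 samples, whose RNA had been amplified before labelling. Neither the GCRMA version nor whether other arrays were normalized with these is given in the sources used here. After leaving out 64 array controls, 22746 probe sets were tested. Names came from the platform annotation (13513 probe sets with 1 gene symbol, 503 with several, 8730 with none, the last unnamed here), matched by gene number to RefSeq's TAIR10.1 annotation for 13436, and from the study's list of trichome genes for 53 more. Where both named a probe set, 14 of 14 gave the same locus. Each gene was represented by its probe set with the highest mean.

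Differences, gl3 egl3 minus wild type, were fitted with limma 3.58.1 (lmFit, eBayes) in R 4.3.3, without covariates, two-sided, and adjusted by Benjamini-Hochberg over all probe sets at a threshold of 0.05. The fit had 2 residual and 0.623 prior degrees of freedom, and the number of arrays limits its precision. The study's methods describe independent material for RNA. Its text gives a younger age than the labels. The code was tested on simulated data. The members and lists were chosen with earlier results of these data known, so lists were described by counts and medians only. Values on every array were given for ACT11, AN and BLT, for members at an unadjusted p under 0.05, for the 2 largest differences of each group, and for others where a family needed them. From the wider lists, genes at an unadjusted p under 0.01 or, where none, the 2 largest differences were named. Alternatives were quantile normalization, median centring, 16 added on the linear scale, a filter at a mean of 5 (11298 probe sets), the methods' t-test, robust variances with an intensity trend, a replicate block, leaving out each array, leaving out probe sets of several genes, other thresholds, and the mean over a gene's probe sets.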

Additional observations from a re-analysis of the deposited data

How the results depend on the processing

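No probe set passed an adjusted p under 0.05 under any alternative at that threshold, so the members' side of it says nothing about stability. At an adjusted p under 0.1, 1 probe set passed and no member. At an unadjusted p under 0.01 there were 740 probe sets and 3 members, and at 0.05 there were 2117 and 4. The share of all probe sets at 0.05 is not given for the alternatives, so counts of members under them describe single genes only. The 4 members were 2 with the filter at a mean of 5, which leaves out ACT11, and SPK1 was gained with centring. BLT was among them under each alternative run, ACT11 under all but the filter, AN not under the methods' t-test or when any array was left out, and GRL not with centring, the filter, the intensity trend, or without either gl3 egl3 array. The cause was not tested.

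The ARP2/3 and SCAR median was 0.01 with 16 added, -0.02 with centring, -0.01 with quantile normalization, and -0.03 to 0.05 with an array left out. That of the microtubule genes was -0.07 with centring, -0.08 with quantile normalization and -0.04 to 0.00 with an array left out, that of the branching genes -0.04 and 0.01, and that of the actin genes -0.25 with the filter, which leaves 2 genes, ARP7 and XIK. ACT12 moved from 0.00 to -0.03 with centring and STI from 0.00 to 0.01 with quantile normalization. Such values, where either rounds to 0.00, were not counted as turned. Of 371 alternative values of single members, 12 turned sign by this rule, all when an array was left out. Many of the 371 could not turn. The t-test, the intensity trend, the replicate block, the filter and the 2 probe set alternatives leave a member's difference as it was. The 12 are therefore to be read against the fits with an array left out, not against all 371. The ranges were -0.01 to 0.84 for ARP2, -0.16 to 0.12 for ARP7, -0.33 to 0.02 for DIS2, -0.21 to 0.01 for KIPK, -0.04 to 0.02 for KIS, -0.11 to 0.03 for PIR121, -0.01 to 0.49 for POR, -0.46 to 0.22 for SCAR2, -0.11 to 0.08 for TUA6 and -0.18 to 0.08 for ZWI. The cause was not tested. With 1 array left in a group, its spread was taken from the remaining group.

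The labels do not say that same-numbered samples were grown or processed together, and their deviations correlated at 0.13 over probe sets. With the replicate block, 0 members passed the adjusted threshold and 6 were at an unadjusted p under 0.05, with SPK1 and RPL3B added. The share of all probe sets with the block is not given here, and no median changed. GCRMA's compression at the low end limits STI and ACT12.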
